A study of Homo sapiens with 6 samples.

Results

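The olfactomedin family described here comprises 7 genes for secreted glycoproteins, OLFM1, OLFM2, OLFM3, OLFML1, OLFML2A, OLFML2B and OLFML3, found by their symbols among the 35473 rows of a table of gene expression. RNA with polyA tails had been sequenced from IMR32, an established human neuroblastoma line known for its amplified MYCN. The cells had received CBR-470-1, known as an inhibitor of the glycolytic enzyme phosphoglycerate kinase and an activator of the transcription factor NRF2, at 5 µM for 24 h, or the DMSO vehicle for 24 h. There were 3 independent biological replicates of each, all in the same cell line, and no other dose or time is analysed here. Values are TPM, which divide the reads of a gene by its length and scale each library to a common total. A higher TPM in bulk cultures does not tell more RNA per cell from more cells of a kind that makes it.

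Olfactomedin proteins share the olfactomedin domain, a propeller-shaped fold near the C terminus, and most members are secreted into the extracellular space. OLFM1, OLFM2 and OLFM3, also called noelins, are made mainly in the nervous system, where they join AMPA-type glutamate receptor assemblies at the neuronal surface, and OLFM1 also binds the Nogo receptor that restrains axon growth. The name noelin comes from chick embryos, in which OLFM1 prolongs the formation of neural crest, the embryonic tissue from which neuroblastoma arises. The same domain stands outside the cell on the latrophilins, adhesion receptors encoded by ADGRL1, ADGRL2 and ADGRL3.

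The libraries carried the transcripts of an adrenergic neuroblastoma line. All 10 adrenergic markers, among them HAND2 and GATA3, exceeded a mean of 1 TPM, and together they summed to 2592 to 2658 TPM in CBR-470-1 libraries and 2668 to 2921 TPM in DMSO libraries. The amplified gene MYCN gave the largest part of these sums, with means of 1104 TPM in CBR-470-1 and 1173 TPM in DMSO. Of the 10 adrenergic markers 1 passed the limma test, as lower, beside 1.97% of all tested genes called. This was DBH, the enzyme that makes noradrenaline (limma adjusted p = 0.0247). It stood at 8.51 ± 0.372 TPM in CBR-470-1 and 12.7 ± 0.683 TPM in DMSO (SD, n = 3 each). The call of DBH was not followed through the alternative settings. The 8 blood and endothelial markers reached at most 0.258 TPM, with CD3E and HBB listed at 0 in every library, and the 5 epithelial markers at most 0.746 TPM. Of 8 fibroblast markers, 4 were above a mean of 1 TPM, and the list summed to 48.9 to 54.4 TPM in CBR-470-1 and 44.2 to 46.7 TPM in DMSO. Of 10 mesenchymal and Schwann markers, 5 were above a mean of 1 TPM, and the list summed to 24.7 to 31.0 TPM in CBR-470-1 and 28.8 to 33.1 TPM in DMSO. The part of these differing marker sums in the results below was not tested. NQO1, a quinone reductase and standard NRF2 target, stood at 66.2 ± 4.59 TPM in CBR-470-1 and 4.66 ± 0.817 TPM in DMSO (SD, n = 3 each), as a check that the treatment had acted. The depth behind the values is unknown, since TPM keeps no record of it.

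OLFM1 was the family member that IMR32 cells expressed in quantity. It lies on chromosome 9 from 135075422 to 135121179 on the plus strand (ENSG00000130558.19, GRCh38, GENCODE 29), a span of 45758 bases that holds 12 annotated transcripts. The longest of these has 2624 bases and a GC content of 59.0%. RefSeq places starts of OLFM1 transcripts at several points of the locus, and the 250 bases before each of 3 starts are shown because OLFM1 carries the main difference of the family and the deposited value sums all its transcripts, so that it does not say which start was used. RefSeq and GENCODE starts differ, and the window of start 1 runs past the GENCODE start at 135075422, so its last part lies inside that span. The windows of starts 2 and 3 lie wholly inside it. Capitals mark the GC box GGGCGG on either strand (RefSeq, GRCh38.p14, plus strand, 5′ to 3′).
OLFM1 start 1, chr9:135075255-135075504: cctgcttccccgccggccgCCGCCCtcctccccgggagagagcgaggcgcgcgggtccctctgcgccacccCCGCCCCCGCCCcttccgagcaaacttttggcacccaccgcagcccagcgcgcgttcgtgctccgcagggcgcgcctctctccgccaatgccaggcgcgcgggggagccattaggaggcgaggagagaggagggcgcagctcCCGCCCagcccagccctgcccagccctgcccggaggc
OLFM1 start 2, chr9:135087010-135087259: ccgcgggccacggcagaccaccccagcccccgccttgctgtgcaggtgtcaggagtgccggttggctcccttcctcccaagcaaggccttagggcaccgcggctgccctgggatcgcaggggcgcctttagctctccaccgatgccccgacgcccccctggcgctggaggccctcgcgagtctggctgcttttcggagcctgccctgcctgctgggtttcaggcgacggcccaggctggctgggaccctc
OLFM1 start 3, chr9:135087418-135087667: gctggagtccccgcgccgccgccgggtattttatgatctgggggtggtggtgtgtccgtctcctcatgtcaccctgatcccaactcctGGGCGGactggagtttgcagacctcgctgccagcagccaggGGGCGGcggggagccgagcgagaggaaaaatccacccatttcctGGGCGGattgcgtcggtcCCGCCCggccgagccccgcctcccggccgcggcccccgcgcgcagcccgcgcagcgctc

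The windows of OLFM1 were rich in G and C, at 76.8%, 71.6% and 71.2% for starts 1, 2 and 3. The GC box occurred 4 times before start 1, 0 times before start 2 and 4 times before start 3, and 42.6% of the 35116 windows of the same length on the reference chromosomes held at least 1. The antioxidant response element core TGACNNNGC, to which NRF2 binds with small MAF proteins, was searched on both strands because the series concerns NRF2. It had 0 matches in the 3 OLFM1 windows, while 10.9% of all windows held it. The E-box CACGTG, a site for MYC family factors, also had 0 matches there, and 6.34% of all windows held it. RefSeq windows were found for 6 of the 7 genes, 11 in all. Windows of other family genes, among them OLFM2 and OLFML3, also reached into the GENCODE spans of their genes. The only match to TGACNNNGC among them was 1 before OLFML2B on chromosome 1, and the only match to CACGTG was 1 before OLFM2 on chromosome 19. The GC box was thus the only motif searched that had a match in the OLFM1 windows, and these letters say nothing of binding in these cells or of sequence outside the windows.

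The levels of the 7 genes covered a wide range and kept the same order in treated and untreated cells. In CBR-470-1 libraries the mean levels ran from OLFM1 at 279 TPM through OLFM2 at 7.41, OLFM3 at 6.18, OLFML3 at 3.54, OLFML2B at 0.323 and OLFML2A at 0.0792 to OLFML1 at 0.0235 TPM. In DMSO libraries they ran from OLFM1 at 197 TPM through OLFM2 at 7.73, OLFM3 at 6.01, OLFML3 at 4.31, OLFML2B at 0.835 and OLFML2A at 0.0599 to OLFML1 at 0.0258 TPM. No neighbours in this order overlapped between libraries in CBR-470-1, and in DMSO only OLFML2A and OLFML1 did. OLFM1 was 37.6 times as abundant as OLFM2 in CBR-470-1 and 25.5 times in DMSO. It made up 93.7% to 94.3% of the summed TPM of the family in CBR-470-1 libraries and 91.1% to 91.3% in DMSO libraries. The other 6 genes together summed to 16.5 to 19.0 TPM in CBR-470-1 and 18.5 to 19.3 TPM in DMSO.

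**Figure D1:**
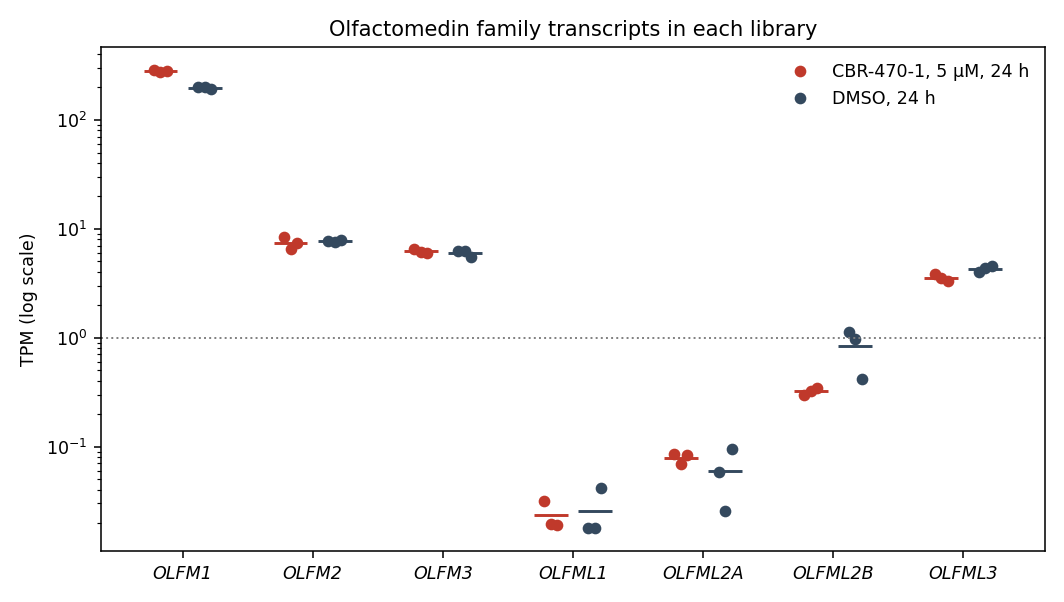
TPM (log axis) of the 7 olfactomedin family genes in each library, CBR-470-1 in red and DMSO in blue-grey, with points for libraries, short lines for the means of 3 and a dotted line at 1 TPM. OLFM1 stands above 190 TPM in every library, OLFM2, OLFM3 and OLFML3 lie between 3.29 and 8.32 TPM, and OLFML1 and OLFML2A stay below 0.1 TPM.

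OLFM1 was higher after CBR-470-1. It had 285, 273 and 278 TPM in the CBR-470-1 libraries, against 201, 198 and 192 TPM in the DMSO libraries. Every treated library lay above every control library, as in 17.7% of the 13470 genes that averaged 1 TPM or more. The gap of 81.3 TPM between the means was several times the spread within either group. The means were 279 ± 5.67 TPM in CBR-470-1 and 197 ± 4.54 TPM in DMSO (SD, n = 3 each), a ratio of 1.41. On the log2(TPM + 1) scale the difference was 0.50 with an SE of 0.037 in limma. OLFM1 moved up among the transcripts of the cell, being the 512th to 539th most abundant row in CBR-470-1 libraries and the 767th to 802nd in DMSO libraries. The family was chosen with this contrast known, so these values describe OLFM1 and are given with no p-value.

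In limma, fitted to all 13470 rows that averaged 1 TPM or more, 1.97% of rows passed at an adjusted p under 0.05, 1.13% as higher and 0.839% as lower in CBR-470-1. These were 265 genes, 152 higher and 113 lower, against 124 higher and 237 lower with median centring, 118 and 121 with quantile normalization and 153 and 216 with a correction for GC content and length. Of the 7 family genes 4 were abundant enough to enter this fit, OLFM1, OLFM2, OLFM3 and OLFML3, and 1 of them passed, OLFM1. Since the family was chosen with this contrast known, that pass and the places given next describe OLFM1 and are no test of it. By size of the fold change OLFM1 was the 49th of the 152 genes called higher. By TPM gained it was the 13th of them, and by its level in DMSO the 23rd. The other 3 genes, OLFML1, OLFML2A and OLFML2B, had means under 1 TPM and were not tested.

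OLFM2 and OLFM3, the other noelins, had treated and control libraries that overlapped, and neither passed in limma. Whether they differed from OLFM1 in response was not tested. OLFM2, which is also known to act with serum response factor in smooth muscle differentiation, lies on chromosome 19 from 9853718 to 9936552 on the minus strand. It had 8.32, 6.53 and 7.39 TPM in CBR-470-1 libraries, against 7.70, 7.62 and 7.87 TPM in DMSO libraries. The treated libraries lay on either side of the control libraries and varied more, with a coefficient of variation of 12.0% in CBR-470-1 and 1.67% in DMSO. The mean ratio was 0.959 and the log2 difference -0.06 (SE 0.095). OLFM3, also called optimedin and known from retina and brain, lies on chromosome 1 from 101802574 to 101997030 on the minus strand. It had 6.49, 6.06 and 5.98 TPM in CBR-470-1 libraries, against 6.24, 6.28 and 5.52 TPM in DMSO libraries. The groups overlapped, with a mean ratio of 1.03 and a log2 difference of 0.03 (SE 0.086). The pseudogene DNAJA1P5 and the small nuclear RNA row RNU6-352P overlap OLFM3 on the opposite strand and were listed at 0 in every library.

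OLFML3, a secreted protein that in frog embryos brings the protease BMP1 to the BMP antagonist chordin, had its treated libraries below its controls without passing in limma. It lies on chromosome 1 from 113979391 to 114035572 on the plus strand. It had 3.82, 3.52 and 3.29 TPM in CBR-470-1 libraries, against 4.003, 4.39 and 4.54 TPM in DMSO libraries. The groups did not overlap, but the gap between the nearest libraries was small beside the spread within each group. The means were 3.54 ± 0.266 TPM in CBR-470-1 and 4.31 ± 0.276 TPM in DMSO (SD, n = 3 each), a ratio of 0.822, with a log2 difference of -0.22 (SE 0.098). Groups without overlap were common here: 30.2% of tested genes had them, 17.7% higher and 12.5% lower in CBR-470-1, and 2 of the 4 tested family genes did, OLFM1 and OLFML3.

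OLFML2B and OLFML2A encode the photomedins, extracellular proteins that in mouse retina bind chondroitin sulphate and heparin. OLFML2B lies on chromosome 1 from 161983192 to 162023854 on the minus strand and had 0.298, 0.326 and 0.346 TPM in CBR-470-1 libraries, against 1.12, 0.965 and 0.417 TPM in DMSO libraries. The treated libraries were close together and all below the controls, while DMSO replicate 3 lay much nearer to the treated libraries than the other 2 controls did. OLFML2B was not tested, and how often untested genes had groups without overlap was not counted. The means were 0.323 ± 0.0240 TPM in CBR-470-1 and 0.835 ± 0.370 TPM in DMSO (SD, n = 3 each), a ratio of 0.387. At this level, with the depth unknown, the counting error behind each value cannot be given. OLFML2A, on chromosome 9 from 124777158 to 124814885 on the plus strand, had 0.0693 to 0.0852 TPM in CBR-470-1 libraries and 0.0255 to 0.0953 TPM in DMSO libraries. OLFML1, a little studied secreted member on chromosome 11 from 7485388 to 7511377 on the plus strand, had 0.0191 to 0.0318 TPM in CBR-470-1 libraries and 0.0177 to 0.0418 TPM in DMSO libraries. Both of these genes were close to 0 in every library and their groups overlapped.

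**Figure D2:**
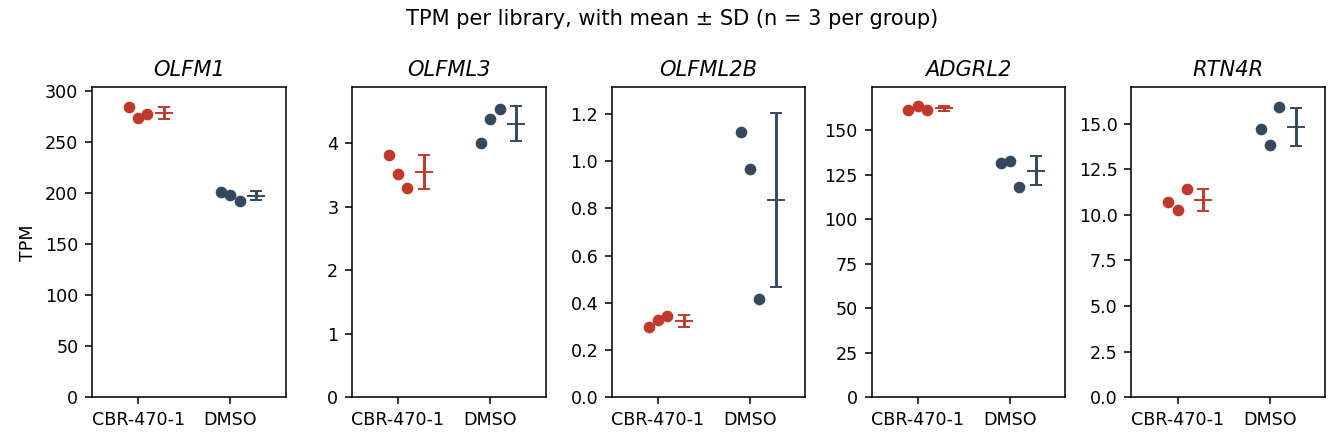
TPM (linear axes from 0, a scale for each gene) of OLFM1, OLFML3, OLFML2B, the latrophilin gene ADGRL2 and the Nogo receptor gene RTN4R in each library, CBR-470-1 left in red and DMSO right in blue-grey, with points for libraries and bars for the mean ± SD (n = 3 per group). The groups separate in all 5 panels, as they did in 30.2% of all tested genes. OLFM1 and ADGRL2 are higher in CBR-470-1 and OLFML3, OLFML2B and RTN4R lower. OLFML2B was not tested, and its DMSO replicate 3, at 0.417 TPM, lies near the treated libraries. The family genes not shown here, OLFM2, OLFM3, OLFML1 and OLFML2A, had groups that overlapped.

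The domain that gives the family its name also occurs in proteins anchored at the membrane, and among their genes ADGRL2 passed in limma as higher. Of 6 further olfactomedin-domain genes 3 were tested, the latrophilins, and 1 rose and 0 fell in limma, beside 1.97% of all tested genes called. The median log2 fold change was -0.03, against 0.03 over all tested genes. An unadjusted p under 0.05 in limma was found for 1 of the 3, beside 23.5% of all tested genes. ADGRL2 encodes latrophilin 2, an adhesion G protein-coupled receptor with a part in synapse formation, and lies on chromosome 1 from 81306160 to 81992436 on the plus strand. It had 161, 163 and 161 TPM in CBR-470-1 libraries, against 132, 132 and 118 TPM in DMSO libraries. The treated libraries were nearly equal and all above the controls, of which DMSO replicate 3 was the lowest. The log2 fold change was 0.35 (SE 0.053, limma adjusted p = 0.0297). Without single libraries the adjusted p of ADGRL2 in limma stayed under 0.05 only when DMSO replicate 3 was left out (0.0382), and it was 0.0634 and 0.0723 when DMSO replicate 1 or 2 was dropped. Dropping CBR-470-1 replicate 1, 2 or 3 gave 0.0853, 0.117 and 0.118. With no filter it was 0.0668, with no variance trend 0.0764 and with the replicate number as a block 0.104. With the GC and length correction ADGRL2 passed at a smaller log2 fold change of 0.24 (limma adjusted p = 0.0303). In all it passed in 7 of 15 alternatives. ADGRL1 had 51.2 to 53.4 TPM in CBR-470-1 and 51.0 to 55.6 TPM in DMSO, and ADGRL3 had 10.4 to 11.8 TPM in CBR-470-1 and 10.2 to 13.8 TPM in DMSO. The 3 latrophilin genes together summed to 223 to 227 TPM in CBR-470-1 libraries and 184 to 197 TPM in DMSO libraries. OLFM4, MYOC, which encodes myocilin of the eye, and GLDN, which encodes gliomedin of the node of Ranvier, were at most 0.137 TPM in any library and were not tested.

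Genes for the proteins that olfactomedin proteins bind or act beside were examined in 5 more lists. Over all 6 lists, 43 of 71 genes were tested and 2 passed in limma, 1 higher and 1 lower, which is 4.65% beside the 1.97% of all tested genes. The lists were chosen with earlier results of these data known, so these shares and the adjusted p-values of list genes are a description. At an unadjusted p under 0.05 in limma were 12 of these 43 genes, beside 23.5% of all tested genes (3163 of 13470), the share against which the unadjusted counts of the lists below stand. The median log2 fold change over these 43 genes was 0.02, beside 0.03 over all tested genes.

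The list of the Nogo receptor complex, to which OLFM1 binds, also holds genes of its ligands, among them RTN4. Of the 9 genes 6 were tested, and 0 rose and 1 fell in limma, beside 1.97% of all tested genes called. The median log2 fold change was -0.10. In limma 3 of the 6 had an unadjusted p under 0.05, beside 23.5% of all tested genes: RTN4R, which was lower, and TNFRSF19 and RTN4, which were higher. The gene that fell was RTN4R, which encodes the Nogo receptor itself. It had 10.7, 10.2 and 11.4 TPM in CBR-470-1 libraries, against 14.7, 13.8 and 15.9 TPM in DMSO libraries. All treated libraries lay below all controls, and the log2 fold change was -0.42 (SE 0.078, limma adjusted p = 0.0465). RTN4R passed in none of the 6 fits that left out a library, with adjusted p from 0.0882 to 0.147, and it missed with the GC and length correction (-0.33, limma adjusted p = 0.0528), with no filter (0.0990) and with no variance trend (0.0659). TNFRSF19, a co-receptor of the same complex named after its values were seen, had 8.47, 10.3 and 9.68 TPM in CBR-470-1 libraries, against 6.92, 6.65 and 6.38 TPM in DMSO libraries. Its log2 fold change was 0.45 (SE 0.090), with a limma adjusted p of 0.0592. It passed in 1 of 15 alternatives, a minimum mean of 5 TPM (0.0432), with adjusted p up to 0.164 in the others and no pass when any library was left out.

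Of the AMPA receptor complex, which the noelins join, 14 of 22 genes were tested, and 0 passed in limma (median log2 fold change -0.02; 1 of the 14 had an unadjusted p under 0.05, beside 23.5% of all tested genes). The members furthest from 0 were CNIH3, an auxiliary subunit, at -0.30 (SE 0.196), SACM1L, a phosphoinositide phosphatase, at 0.24 (SE 0.082), and PRRT1, which encodes a receptor-associated membrane protein, at -0.22 (SE 0.113). In limma these had adjusted p = 0.402, 0.139 and 0.286. Of the latrophilin ligands and their partners, teneurins, FLRT proteins and UNC5 netrin receptors, 9 of 11 genes were tested and 0 passed in limma (median 0.03; 1 of the 9 had an unadjusted p under 0.05, beside the same 23.5%). TENM2 stood at -0.37 (SE 0.183), FLRT1 at -0.27 (SE 0.093) and UNC5A at -0.19 (SE 0.099), with limma adjusted p-values of 0.271, 0.148 and 0.287.

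Of the BMP, chordin and tolloid genes, the setting in which OLFML3 acts, 7 of 13 were tested and 0 passed in limma (median log2 fold change 0.05; 4 of the 7 had an unadjusted p under 0.05, beside 23.5% of all tested genes). CHRDL1, a chordin-like antagonist, stood at -0.38 (SE 0.130), and PCOLCE2 and PCOLCE, which encode enhancers of BMP1 as a procollagen protease, at 0.31 (SE 0.088) and -0.26 (SE 0.058). In limma these had adjusted p = 0.141, 0.104 and 0.0682, and PCOLCE passed in 1 of 15 alternatives, a minimum mean of 5 TPM (0.0489), with adjusted p up to 0.188 in the others and no pass when any library was left out. CHRD itself was at 0.0418 to 0.370 TPM in CBR-470-1 libraries and 0.0311 to 0.481 TPM in DMSO libraries, and was not tested. Of the secreted WNT antagonists 4 of 10 were tested and 0 passed in limma (median 0.12; 2 of the 4 had an unadjusted p under 0.05, beside the same 23.5%). DKK1 stood at 0.24 (SE 0.092), SFRP1 at 0.14 (SE 0.045) and FRZB at 0.09 (SE 0.064), with limma adjusted p-values of 0.175, 0.118 and 0.429.

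**Figure D3:**
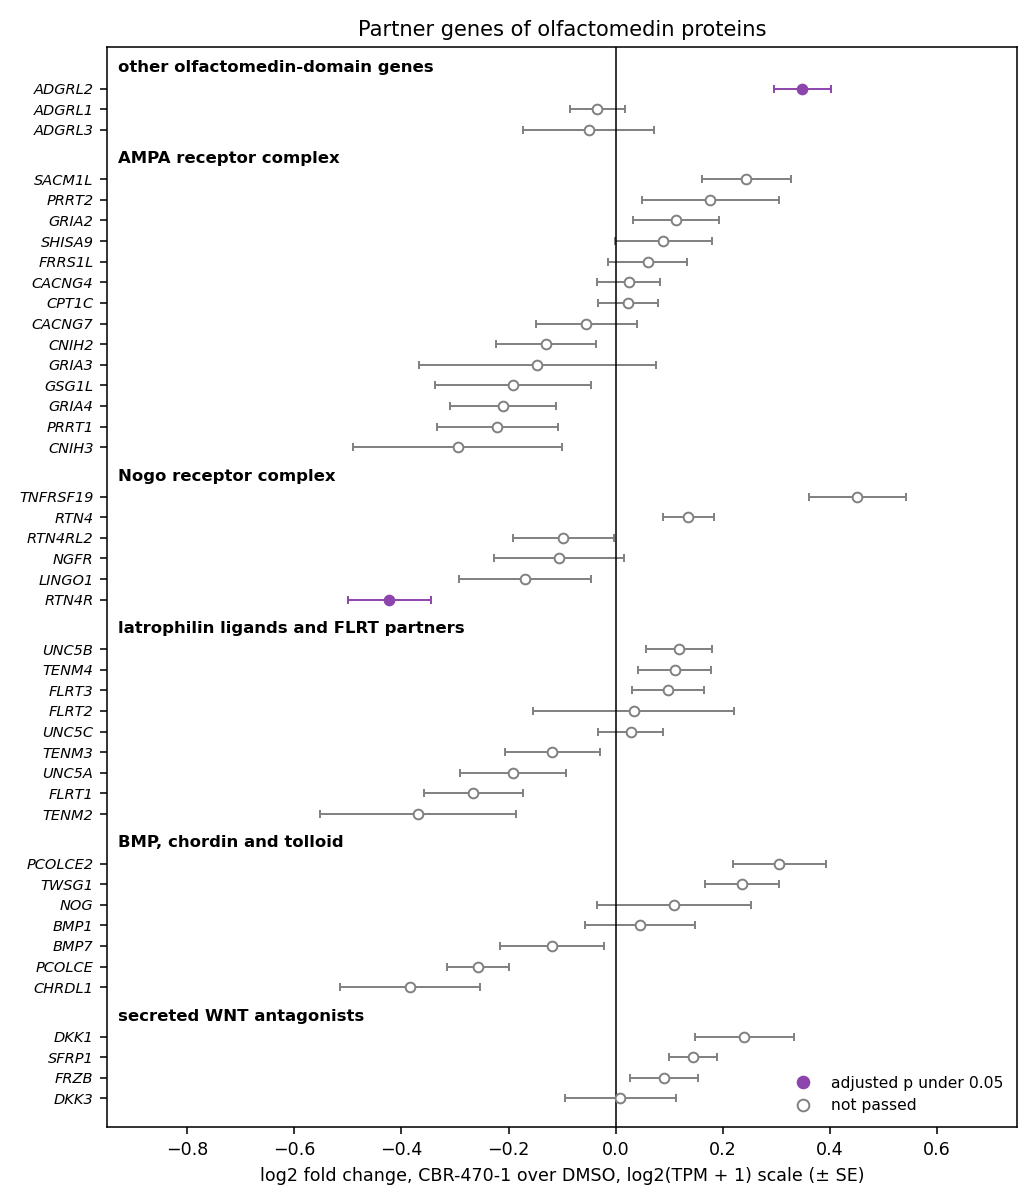
Log2 fold change of CBR-470-1 over DMSO on the log2(TPM + 1) scale, with its SE, for the 43 tested genes of the 6 lists, grouped by list, with filled points for an adjusted p under 0.05 in limma. ADGRL2 at 0.35 and RTN4R at -0.42 are the 2 filled points, and the other genes lie on either side of 0.

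The genes whose libraries lay closest to those of OLFM1 were sought among 10475 tested genes that averaged 5 TPM or more. Each gene was expressed as log2(TPM + 1) less its own DMSO mean, and likeness was the root mean square difference from OLFM1 over the 6 libraries, in log2 units. OLFM1 itself stood at 0.53, 0.47 and 0.49 in CBR-470-1 replicates 1, 2 and 3 and at 0.03, 0.01 and -0.04 in DMSO replicates 1, 2 and 3. KCTD12, an auxiliary subunit gene of GABA-B receptors, was the closest at 0.0299, with 54.0 ± 0.533 TPM in CBR-470-1 and 38.1 ± 1.64 TPM in DMSO (SD, n = 3 each). NRP1, the semaphorin and VEGF co-receptor neuropilin 1, followed at 0.0362, with 76.7 ± 0.332 TPM in CBR-470-1 and 54.7 ± 3.29 TPM in DMSO. Next were IDS, a lysosomal sulfatase gene whose reads a nearby pseudogene copy can share, at 0.0424, UCHL1, a neuronal ubiquitin hydrolase gene, at 0.0429, and ADAMTS9, a secreted metalloprotease gene, at 0.0435. Their ratios of CBR-470-1 over DMSO were 1.39, 1.39 and 1.41. The median gene lay 0.344 from OLFM1. These genes were picked by the pattern itself, so their values are a description with no test.

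**Figure D4:**
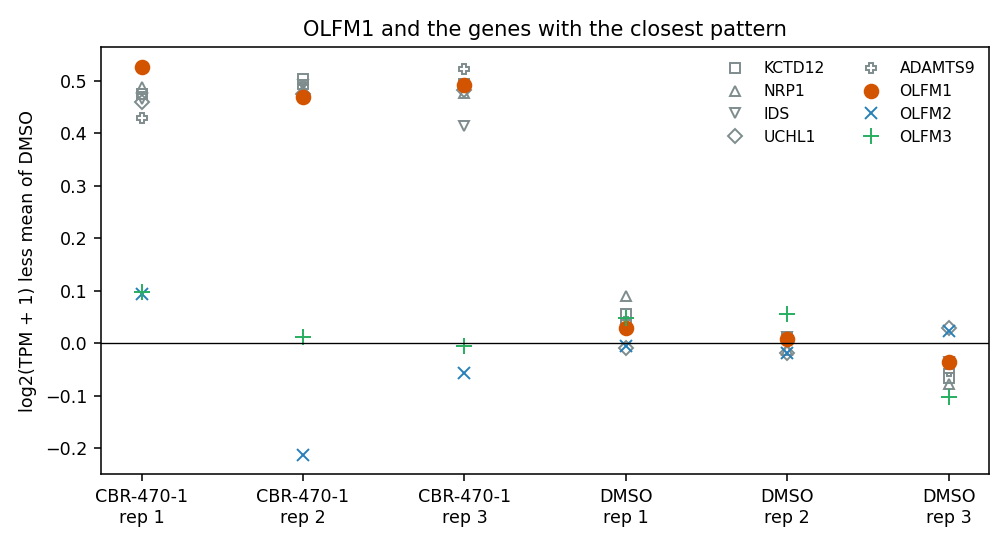
Log2(TPM + 1) less the mean of the DMSO libraries, for each library, of OLFM1 (orange), the 5 genes closest to it (grey outlines), OLFM2 (blue crosses) and OLFM3 (green plus signs). OLFM1 stands between 0.47 and 0.53 in the CBR-470-1 libraries with the grey genes around it, while OLFM2 and OLFM3 scatter about 0.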

How the data were processed

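The 6 libraries were deposited by the authors as TPM per gene symbol. The submitters' processing notes name bcl2fastq, Salmon 0.7.2 and build GRCh38; the annotation and the summing of transcripts are not given in those sources. TPM is a share, so genes that rise lower others, and gene sums do not separate isoforms. Columns summed to 972453 to 973696 TPM.

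Rows that averaged 1 TPM or more were analysed as log2(TPM + 1), which understates changes of low genes, with R 4.3.3 and limma 3.58.1 (a factor for group alone, variance trend, two-sided, Benjamini-Hochberg over 13470 rows, threshold 0.05). The fit was tested on simulated data. Members and lists were chosen with earlier results of these data known. The text names all 7 members, the called genes of each list or else the 3 largest changes, and the 5 genes most like OLFM1. Beyond this rule it also names further list genes, among them TNFRSF19, RTN4, ADGRL1, ADGRL3 and CHRD. Coordinates are from GENCODE 29. Alternatives were other pseudocounts, filters and scalings, no variance trend, a replicate block, single libraries left out and, chosen after seeing the data, a GC and length correction.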

Additional observations from a re-analysis of the deposited data

How the results depend on the processing

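The log2 fold change of OLFM1 lay between 0.46 (median centring) and 0.54 (GC and length correction) over 15 alternatives and passed in limma in all 15, which describes the gene and adds no support, since it was chosen on this contrast. OLFM2 ran from -0.14 to 0.02, OLFM3 from -0.06 to 0.06 and OLFML3 from -0.28 to -0.12, and none of these passed in any alternative that tested them. OLFML2B ran from -1.05 with a pseudocount of 0.1 TPM to -0.13 with 5 TPM, since the pseudocount sets the scale of so low a gene. The number of genes called in limma, 265, was 82 with no filter, 428 with a minimum mean of 5 TPM, 83 with no variance trend, and 18 to 82 without single libraries (82, 42 and 82 when DMSO replicate 1, 2 or 3 was dropped; 31, 26 and 18 when CBR-470-1 replicate 1, 2 or 3 was). Of the 6 lists, 2 genes passed; this was 0 with no filter (69 genes tested), 4 with a minimum mean of 5 TPM, 0 with no variance trend, 1 with the GC and length correction, and 0 to 1 without single libraries. With the replicate number as a block, 17 genes and 0 list genes passed. Deviations from the group means correlated at -0.14, -0.01 and -0.03 across genes for replicates 1, 2 and 3. No library correlated best with the library of its own number in the other group. With 3 libraries per group these values cannot show whether equal numbers were paired. The block leaves fewer residual degrees of freedom. The depth is unknown, so a floor for OLFML1, OLFML2A and OLFML2B cannot be given.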
